A study of Arabidopsis thaliana with 15 samples.

Results

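The vacuolar-type H+-ATPase (V-ATPase) is the proton pump of the plant endomembrane system, and transcripts of 6 of its subunit genes were followed here in rosette leaves of Arabidopsis thaliana. The genes were the trans-Golgi subunit gene VHA-A1 (AT2G28520), the tonoplast subunit genes VHA-A2 (AT2G21410) and VHA-A3 (AT4G39080), and the peripheral subunit genes AT3G42050, AT3G58730 and AT4G02620. They were taken by symbol or locus from probe sets annotated to 1 gene only. All 6 were found, with 1 probe set each, among the 22746 probe sets tested, which cover 13350 genes through probe sets of 1 gene.

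The study compared knockouts of NHX5 and NHX6, which encode endosomal cation/H+ exchangers, on Affymetrix Arabidopsis genome arrays. Each of 5 genotypes had 3 arrays, which the labels call biological replicates. The 5 genotypes were wild type, the single knockout nhx5-2 (T-DNA line GABI-09H405), the single knockout nhx6-2 (T-DNA line SALK_100042), the double knockout nhx5-2/nhx6-2, and a second double knockout, nhx5-1/nhx6-1, from the lines WiscDsLox345-348M8 and SALK_113129. All plants had the same ecotype, spelled colombia in the labels, were 4 weeks of age and were kept in soil under 8 h of light and 16 h of darkness. Each allele is a single insertion line that every cell of the plant carries. NHX5 and NHX6 have no probe set annotated to 1 gene only, and other probe sets were not examined for them, so the genotypes rest here on the labels alone.

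The V-ATPase couples ATP hydrolysis in a peripheral sector on the cytosolic face of the membrane to proton transport through a membrane-embedded sector. In Arabidopsis the isoform of subunit a, a membrane-sector protein, sets where the pump works: VHA-a1 directs it to the trans-Golgi network and early endosomes, and VHA-a2 and VHA-a3 to the tonoplast, the membrane of the central vacuole. NHX5 and NHX6 move K+ or Na+ into Golgi, trans-Golgi and prevacuolar compartments in exchange for luminal protons, and so release protons that the V-ATPase has pumped in.

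Values are the deposited score of a probe set, a log-like unit with no stated base. On the arrays' own spike-in controls a difference of 1 unit corresponded to a 2.77-fold difference in concentration, and the folds below use that conversion. It comes from bright spike-ins and need not hold for dim transcripts. Levels of different probe sets were not set against each other, since a probe set's level also depends on its probes. In a whole leaf, fewer cells of a type and less RNA per cell cannot be told apart.

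Array quality differed among the genotypes. Bacterial control probe sets without a target had median signals per array from -0.81 to -0.57. The SD over probe sets was 0.876 to 0.893 on 13 arrays and lower on nhx5-2 replicate 1 (0.797) and nhx5-1/nhx6-1 replicate 3 (0.762). The 3′ minus 5′ signal of the actin and GAPDH controls, which rises as RNA or labelled RNA shortens, was 1.79 to 1.97 in wild type, 1.45 to 1.57 in nhx5-2 and 1.55 to 1.69 in nhx6-2. It was 1.75 to 2.14 in nhx5-2/nhx6-2 and 2.27 to 2.40 in nhx5-1/nhx6-1, whose 3 arrays lay above all others. Of 7 mesophyll markers 1 was measured, RCA (Rubisco activase, which keeps the carbon-fixing enzyme active), at 4.96 to 5.71. Of 5 root markers 1 was measured, AT5G17820, at -0.81 to -0.54 and so near the level without a target. Of 3 guard cell markers 1 was measured, FMA, a transcription factor of the guard cell lineage, at -0.31 to -0.16. None of these markers passed the test in either double knockout against wild type, and no flower or vascular marker was measured.

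The signals of all 6 V-ATPase transcripts exceeded the level of the controls without a target on all 15 arrays. The margin was at least 0.65 units for VHA-A1 and at least 2.17 units for AT3G42050. Over all probe sets tested, 21201 had a mean above that level (-0.73 as a mean over arrays), so this does not set the 6 genes apart. Against wild type, none of the 6 genes passed the test in any knockout (limma, p adjusted by Benjamini-Hochberg over all 22746 probe sets, threshold 0.05). The lowest unadjusted p-values against wild type were both in nhx5-1/nhx6-1, where AT4G02620 measured 0.28 units lower than wild type and VHA-A2 measured 0.14 units higher. Between knockouts, VHA-A2 was higher in nhx5-1/nhx6-1 than in nhx5-2, and AT4G02620 was lower in nhx5-1/nhx6-1 than in nhx6-2. These comparisons were added after the values were seen, and limma called 9.23% and 7.86% of all probe sets in them, respectively. Neither gene passed in a fit of only the compared genotypes. The plot of the 6 genes on the 15 arrays shows every value behind these statements.

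**Figure D1:**
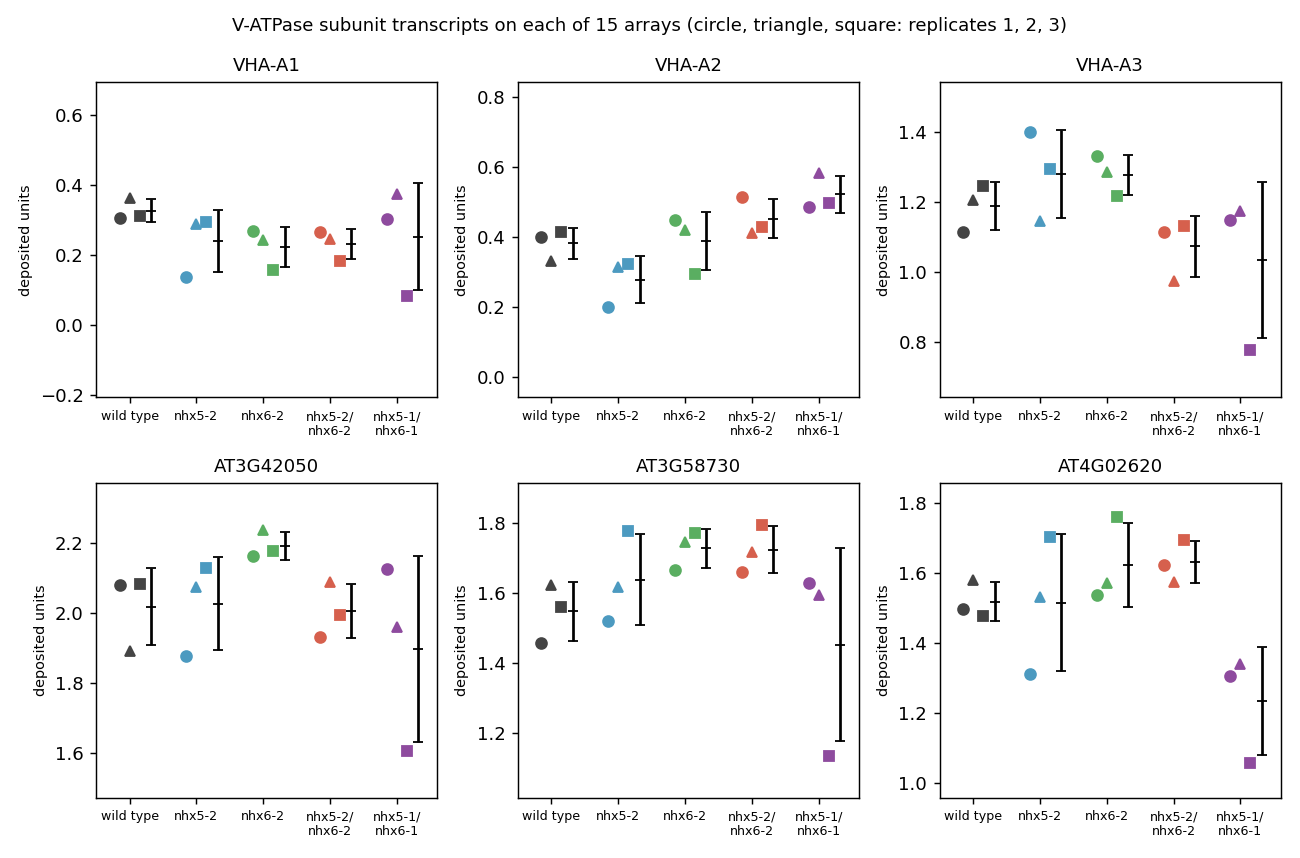
Deposited signal of the 6 V-ATPase genes on each of the 15 arrays, 1 panel per gene, with the genotypes along the horizontal axis and deposited units on the vertical axis. Circles, triangles and squares are replicates 1, 2 and 3, bars are the mean and SD of 3 arrays, and all panels span the same number of units. nhx5-1/nhx6-1 replicate 3 is the lowest of the 15 arrays for every gene but VHA-A2, and the 3 nhx5-1/nhx6-1 arrays of AT4G02620 lie at 1.06 to 1.34, below all 3 wild type arrays.

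VHA-A1 encodes the subunit a isoform of the trans-Golgi network, one of the compartments in which NHX5 and NHX6 reside. Its signal was 0.31, 0.36 and 0.31 on the wild type arrays, 0.14, 0.29 and 0.29 in nhx5-2 and 0.27, 0.24 and 0.16 in nhx6-2. In the double knockouts it was 0.27, 0.25 and 0.18 in nhx5-2/nhx6-2 and 0.30, 0.37 and 0.08 in nhx5-1/nhx6-1. Every array of both single knockouts and of nhx5-2/nhx6-2 read below all 3 wild type arrays, whereas nhx5-1/nhx6-1 spanned them.

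The VHA-A1 difference from wild type was -0.09 ± 0.07 in nhx5-2, -0.10 ± 0.07 in nhx6-2, -0.09 ± 0.07 in nhx5-2/nhx6-2 and -0.07 ± 0.07 in nhx5-1/nhx6-1 (difference ± SE of the limma model, n = 3 arrays per genotype here and below). The adjusted p of the limma test was 0.941, 1.00, 0.570 and 0.577, respectively. The 95% intervals of the 4 differences together ran from -0.25 to 0.07 units, so that none excluded 0. They reach down to 0.774 of the wild type level and up to 1.08 times it on the spike-in scale. Over the 5 genotypes VHA-A1 had the least evidence of any difference among the 6 genes (moderated F test in limma, adjusted p = 0.829).

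VHA-A2 encodes a tonoplast isoform of subunit a. Its signal was 0.40, 0.33 and 0.41 in wild type, 0.20, 0.31 and 0.32 in nhx5-2 and 0.45, 0.42 and 0.30 in nhx6-2. It was 0.52, 0.41 and 0.43 in nhx5-2/nhx6-2 and 0.49, 0.58 and 0.50 in nhx5-1/nhx6-1. The 3 nhx5-2 arrays lay below all wild type arrays and the 3 nhx5-1/nhx6-1 arrays above them, while nhx6-2 and nhx5-2/nhx6-2 overlapped wild type.

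In nhx5-1/nhx6-1 VHA-A2 exceeded wild type by 0.14 ± 0.05 units, with a 95% interval from 0.02 to 0.26, or 1.15-fold on the spike-in scale. This did not pass over all probe sets (limma, unadjusted p = 0.0215, adjusted p = 0.118), and a difference of 0.18 units would have been needed. In nhx5-2/nhx6-2 the difference from wild type was 0.07 ± 0.05 (interval -0.05 to 0.19), in nhx5-2 -0.10 ± 0.05 (-0.22 to 0.01) and in nhx6-2 0.01 ± 0.05 (-0.11 to 0.12). The single knockout nhx5-2 thus had the lowest VHA-A2 mean and both double knockouts the highest.

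That order placed the clearest VHA-A2 differences between knockouts. In nhx5-2/nhx6-2 the transcript was 0.17 ± 0.05 units above nhx5-2, with no overlap between the arrays, but did not pass (limma, adjusted p = 0.0823). For nhx5-1/nhx6-1 against nhx5-2, a comparison added after the values were seen, VHA-A2 rose by 0.24 ± 0.05 units, 1.28-fold on the spike-in scale (limma, adjusted p = 0.0141), with all 3 arrays above all 3 nhx5-2 arrays. Without both arrays of low SD the difference was 0.22 units (adjusted p = 0.0338). The 3′ minus 5′ signal moved with this contrast, at 2.27 to 2.40 against 1.45 to 1.57. With a covariate for it the VHA-A2 difference was 0.33 ± 0.17 units and no longer passed (adjusted p = 1.00). That fit called 1 of all probe sets in this comparison, against 2099 without the covariate. It could thus hardly call any gene, and the part of the 3′ minus 5′ signal in the difference cannot be told. In a fit of only those 2 genotypes the adjusted p was 0.148.

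VHA-A3 encodes the other tonoplast isoform of subunit a. Its signal was 1.11, 1.21 and 1.25 in wild type, 1.40, 1.15 and 1.29 in nhx5-2 and 1.33, 1.28 and 1.22 in nhx6-2. It was 1.11, 0.97 and 1.13 in nhx5-2/nhx6-2 and 1.15, 1.18 and 0.78 in nhx5-1/nhx6-1. Each knockout overlapped the wild type arrays, and the single and the double knockouts had means on opposite sides of the wild type mean.

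The VHA-A3 difference from wild type was 0.09 ± 0.10 in both nhx5-2 and nhx6-2, -0.11 ± 0.10 in nhx5-2/nhx6-2 and -0.15 ± 0.10 in nhx5-1/nhx6-1, and none passed (limma, lowest adjusted p = 0.369). The lower mean of nhx5-1/nhx6-1 leaned on replicate 3, the array with the smallest SD. Without that array the difference was -0.026 units. Against nhx5-2, nhx5-2/nhx6-2 measured -0.21 ± 0.10 units with no overlap between the arrays (limma, adjusted p = 0.261).

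AT3G42050 encodes a peripheral subunit of the pump. Its signal was 2.08, 1.89 and 2.08 in wild type, 1.88, 2.07 and 2.13 in nhx5-2 and 2.16, 2.24 and 2.18 in nhx6-2. It was 1.93, 2.09 and 1.99 in nhx5-2/nhx6-2 and 2.13, 1.96 and 1.61 in nhx5-1/nhx6-1. All 3 nhx6-2 arrays were above wild type and the other 3 knockouts overlapped it.

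For AT3G42050 the nhx6-2 difference was 0.17 ± 0.11 units and did not pass (limma, adjusted p = 0.999). The other differences from wild type were 0.01 ± 0.11 in nhx5-2, -0.01 ± 0.11 in nhx5-2/nhx6-2 and -0.12 ± 0.11 in nhx5-1/nhx6-1. Their sign was not stable: nhx5-1/nhx6-1 stood 0.025 units above wild type without its replicate 3, and 0.13 units above it when the 3′ minus 5′ signal entered the model. The 95% interval was -0.35 to 0.11 units in nhx5-1/nhx6-1 and -0.06 to 0.41 units in nhx6-2, and none of the 4 excluded 0.

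AT3G58730 has VHA-D as a synonym in the reference gene table, subunit D being part of the central stalk that turns during catalysis. Its signal was 1.46, 1.62 and 1.56 in wild type, 1.52, 1.62 and 1.78 in nhx5-2 and 1.66, 1.74 and 1.77 in nhx6-2. It was 1.66, 1.72 and 1.79 in nhx5-2/nhx6-2 and 1.63, 1.59 and 1.13 in nhx5-1/nhx6-1. The nhx6-2 and nhx5-2/nhx6-2 arrays all exceeded wild type, whereas nhx5-1/nhx6-1 had 1 array just above the wild type range, 1 within it and 1 below all other arrays.

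AT3G58730 differed from wild type by 0.18 ± 0.11 units in nhx6-2 and by 0.18 ± 0.11 in nhx5-2/nhx6-2, neither of which passed (limma, adjusted p = 0.980 and 0.445). It differed by 0.09 ± 0.11 in nhx5-2 and by -0.09 ± 0.11 in nhx5-1/nhx6-1. The double knockouts differed from each other by -0.27 ± 0.11 units (nhx5-1/nhx6-1 minus nhx5-2/nhx6-2; limma, adjusted p = 0.313), with no overlap between the arrays. Without nhx5-1/nhx6-1 replicate 3 that difference was -0.11 units.

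AT4G02620, which has VHA-F as a synonym in the reference gene table, encodes subunit F, another stalk protein of the peripheral sector. Its signal was 1.50, 1.58 and 1.48 in wild type, 1.31, 1.53 and 1.70 in nhx5-2 and 1.54, 1.57 and 1.76 in nhx6-2. It was 1.62, 1.57 and 1.69 in nhx5-2/nhx6-2 and 1.31, 1.34 and 1.06 in nhx5-1/nhx6-1. The nhx5-1/nhx6-1 arrays lay below all arrays of wild type, nhx6-2 and nhx5-2/nhx6-2, and only nhx5-2 replicate 1 reached down into their range.

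In nhx5-1/nhx6-1 the AT4G02620 signal differed from wild type by -0.28 ± 0.10 units, a 1.34-fold lower level on the spike-in scale, with a 95% interval from -0.49 to -0.08. It did not pass (limma, unadjusted p = 0.0108, adjusted p = 0.0735), and a size of 0.31 would have been needed. The call depended on the setting: the adjusted p was 0.0272 after quantile normalization, 0.0436 with 1 mean and SD per array and 0.0168 with array weights. It was 0.0356 without nhx5-2 replicate 1 and 0.0489 without nhx5-2 replicate 3, arrays that enter only through the shared spread. Without nhx5-1/nhx6-1 replicate 3 the difference was -0.20 units (adjusted p = 0.221), and without both arrays of low SD the adjusted p was 0.0819. In the other knockouts AT4G02620 differed from wild type by -0.0035 ± 0.10 (nhx5-2), 0.10 ± 0.10 (nhx6-2) and 0.11 ± 0.10 (nhx5-2/nhx6-2).

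The means of the double knockouts therefore lay on opposite sides of the wild type mean for AT4G02620, although the nhx5-2/nhx6-2 arrays overlapped wild type. Their difference was -0.40 ± 0.10 units (nhx5-1/nhx6-1 minus nhx5-2/nhx6-2), 1.50-fold on the spike-in scale, with no overlap between the arrays, and it did not pass (limma, adjusted p = 0.0942). Against nhx6-2, a comparison added after the values were seen, AT4G02620 fell by 0.39 ± 0.10 units in nhx5-1/nhx6-1 (limma, adjusted p = 0.0258). That call was lost without nhx6-2 replicate 2 (adjusted p = 0.0685), without nhx6-2 replicate 3 (0.0851) and without nhx5-1/nhx6-1 replicate 3 (0.0735). It was also lost in a fit of only those 2 genotypes (0.143) and when the model held the 3′ minus 5′ signal (1.00, difference -0.52 units). The model with that signal called 0 of all probe sets in this comparison, against 1788 without it. That model could thus hardly call any gene, and the part of the 3′ minus 5′ signal in the difference cannot be told. Without both arrays of low SD the difference was -0.30 units and passed (0.0190). The 3′ minus 5′ signal of the compared groups was 2.27 to 2.40 and 1.55 to 1.69.

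Counted over the 6 genes, no call was made in either single knockout against wild type, where limma called 0.0659% of all probe sets in nhx5-2 and 0.290% in nhx6-2, and none of the 6 had an unadjusted p under 0.05. In nhx5-2/nhx6-2 against wild type limma called 0 of 6 genes beside 9.81% of all probe sets, again with 0 of 6 at an unadjusted p under 0.05. In nhx5-1/nhx6-1 limma called 0 of 6 beside 12% of all probe sets, and 2 of 6 had an unadjusted p under 0.05, AT4G02620 and VHA-A2. For the mean of both double knockouts the count was 0 of 6 beside 13.3%, with 1 of 6 at an unadjusted p under 0.05, VHA-A2 (0.11 ± 0.05 units, adjusted p = 0.183). The shares among all probe sets at that unadjusted p were 5.96% for nhx5-2, 6.73% for nhx6-2, 20.2% for nhx5-2/nhx6-2, 24.3% for nhx5-1/nhx6-1 and 24.0% for the mean of both.

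The absence of calls did not come with differences smaller than those over all probe sets. The 2 sets were not matched for signal: the array medians over all probe sets were -0.32 to -0.22, and the lowest value of any of the 6 genes was 0.08. Against wild type the median size of the difference over the 6 genes was 0.10 units in nhx5-2/nhx6-2 and 0.13 in nhx5-1/nhx6-1, compared with 0.053 and 0.077 over all probe sets. The standard errors were larger too, with a median of 0.096 over the 6 genes and 0.068 over all probe sets. The signed medians in nhx5-1/nhx6-1 were -0.11 over the 6 genes and 0.0061 over all probe sets, and 5 of the 6 differences were negative. Those 5 are the genes with their lowest value on replicate 3.

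**Figure D2:**
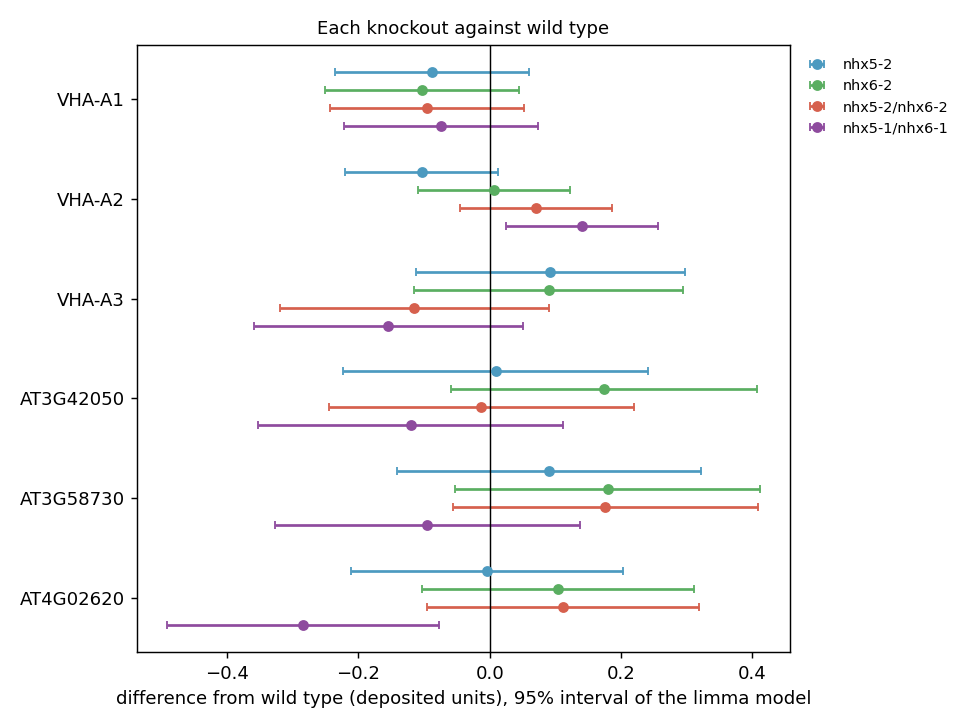
Difference of each knockout from wild type for the 6 V-ATPase genes, in deposited units on the horizontal axis, with the 95% interval of the limma model as bars. Only AT4G02620 (-0.49 to -0.08) and VHA-A2 (0.02 to 0.26) have an interval that excludes 0, both in nhx5-1/nhx6-1, and neither passed after adjustment over all probe sets.

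Arrays without overlap were common across the whole array and so carry little weight for a single gene. In nhx5-1/nhx6-1 26.3% of all probe sets had no overlap with wild type, 15.1% with lower arrays as for AT4G02620 and 11.1% with higher arrays as for VHA-A2. In nhx5-2/nhx6-2 17.6% had lower arrays, as VHA-A1 did, and 16.4% higher, as AT3G58730 did. In nhx5-2 8.47% had lower arrays, as VHA-A1 and VHA-A2 did, and in nhx6-2 5.90% had higher arrays, as AT3G42050 and AT3G58730 did. VHA-A1 in nhx6-2 was among the 8.09% with lower arrays. Between knockouts, 16.1% had higher and 13.4% lower arrays in nhx5-2/nhx6-2 than in nhx5-2, as VHA-A2 and VHA-A3 did. In nhx5-1/nhx6-1 9.88% had lower arrays than in nhx5-2/nhx6-2, as AT3G58730 and AT4G02620 did, and 10.6% higher arrays than in nhx5-2, as VHA-A2 did. Against nhx6-2, 12.4% had lower arrays in nhx5-1/nhx6-1, as VHA-A3, AT3G42050, AT3G58730 and AT4G02620 did, and 9.44% higher, as VHA-A2 did. Lower arrays than in nhx6-2 were seen for 12.9% in nhx5-2/nhx6-2, as for VHA-A3 and AT3G42050, and for 4.22% in nhx5-2, as for AT3G42050.

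The remaining comparisons asked whether the knockouts differed from each other. Against nhx5-2, limma called 0 of 6 genes and 5.45% of all probe sets in nhx5-2/nhx6-2, with 2 of 6 genes and 18.8% of all probe sets at an unadjusted p under 0.05. Against nhx6-2 it called 0 of 6 and 4.10%, with 0 of 6 and 16.2% at the unadjusted threshold. Between the double knockouts it called 0 of 6 and 0.378%, with 2 of 6 and 12.5% at the unadjusted threshold. Between the single knockouts it called 0 of 6 and 0.0132%, with 0 of 6 and 2.91% at the unadjusted threshold. In the added comparisons of nhx5-1/nhx6-1 it called 1 of 6 and 9.23% against nhx5-2, with 3 of 6 and 23.8% at the unadjusted threshold. Against nhx6-2 it called 1 of 6 and 7.86%, with 5 of 6 and 21.5% at the unadjusted threshold. The calls are the VHA-A2 and AT4G02620 differences given above. These comparisons share arrays with those against wild type.

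The genes at an unadjusted p under 0.05 that were not called in the added comparisons had the following values. Against nhx5-2, VHA-A3 differed by -0.25 ± 0.10 units (limma, adjusted p = 0.130) and AT4G02620 by -0.28 ± 0.10 (0.0880) in nhx5-1/nhx6-1. Against nhx6-2, VHA-A2 differed by 0.13 ± 0.05 (adjusted p = 0.162), VHA-A3 by -0.24 ± 0.10 (0.144), AT3G42050 by -0.29 ± 0.11 (0.120) and AT3G58730 by -0.27 ± 0.11 (0.147). Without nhx5-1/nhx6-1 replicate 3 the differences from nhx6-2 were smaller for VHA-A3 (-0.12), AT3G42050 (-0.15) and AT3G58730 (-0.12), and that of VHA-A2 was 0.15.

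Any difference among the 5 genotypes was called by the F test for 0 of 6 genes and 12.3% of all probe sets. VHA-A2 (adjusted p = 0.0540) and AT4G02620 (0.0558) came closest, with an unadjusted p of 0.00694 and 0.00726 in the F test. Among all probe sets, 12.9% and 13.0% had an F test p at least as low, so such values were common.

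The non-additive effect is the part of the nhx5-2/nhx6-2 difference that the sum of both single knockout differences does not give. It was called by limma for 0 of 6 genes, beside 0.0967% of all probe sets, and 2 of 6 had an unadjusted p under 0.05, beside 9.90% of all probe sets. These were the tonoplast subunit genes, with opposite signs: 0.17 ± 0.08 units for VHA-A2 (adjusted p = 0.490) and -0.30 ± 0.13 for VHA-A3 (adjusted p = 0.487).

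Since the tonoplast subunit genes VHA-A2 and VHA-A3 differed in sign in several of these comparisons, their difference was also taken within each array, a measure chosen after the values were seen and described here without a test. VHA-A2 minus VHA-A3 was -0.71, -0.87 and -0.83 in wild type, -1.20, -0.83 and -0.97 in nhx5-2 and -0.88, -0.86 and -0.92 in nhx6-2. It was -0.60, -0.56 and -0.70 in nhx5-2/nhx6-2 and -0.66, -0.59 and -0.28 in nhx5-1/nhx6-1. All 6 double knockout arrays lay nearer to 0 than all 9 other arrays, with -0.703 and -0.714 as the nearest values of the groups. This pair is 1 of 15 among the 6 genes, all of which were computed. How often pairs of probe sets outside the 6 genes keep the double knockout arrays apart was not computed, so the separation carries little weight. VHA-A1 minus VHA-A2 also kept the double knockout arrays (-0.42 to -0.17) apart from wild type (-0.10 to 0.03). It did not keep them apart from all 9 other arrays (-0.18 to 0.03). Such a difference within an array shows unequal change of 2 signals, not which of them changed.

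**Figure D3:**
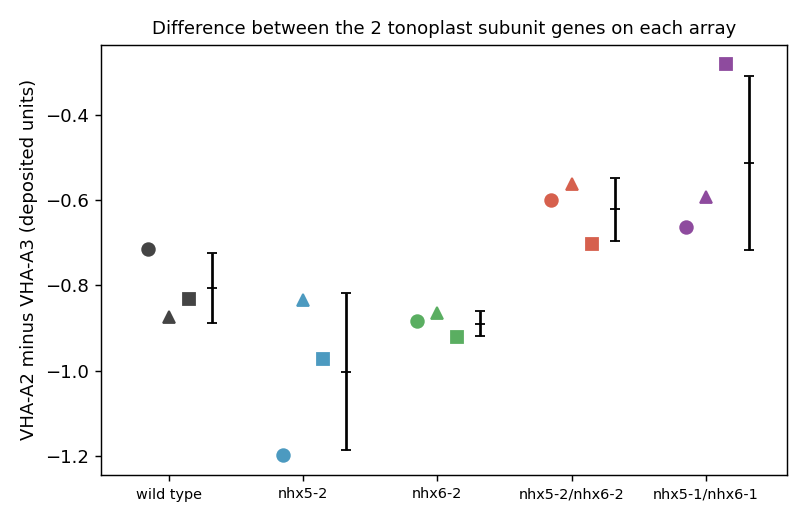
VHA-A2 minus VHA-A3 on each array, in deposited units on the vertical axis, by genotype. Circles, triangles and squares are replicates 1, 2 and 3, and bars are the mean and SD of 3 arrays. The double knockout arrays lie at -0.70 to -0.28 and the 9 other arrays at -1.20 to -0.71.

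The genotypes can be ordered by mean for each gene. Of 24 steps between neighbouring genotypes none passed after adjustment over all probe sets. The lowest adjusted p in limma was 0.0880, for the step from nhx5-2 down to nhx5-1/nhx6-1 in AT4G02620. That step was -0.28 ± 0.10 units, with an unadjusted p of 0.0116 in limma. Neighbours were picked by the same means, which favours small steps, so the absence of a call among them says little. Of all 60 tests of a gene between 2 genotypes, 2 passed. These tests share arrays, and both calls are in the comparisons added after the values were seen. In those comparisons limma called 9.23% (against nhx5-2) and 7.86% (against nhx6-2) of all probe sets. The shares for the other pairs of genotypes are given above, and the 2 calls were not tested against them. Wild type ranked highest for VHA-A1, nhx5-1/nhx6-1 for VHA-A2, nhx5-2 for VHA-A3, nhx6-2 for AT3G42050 and AT3G58730, and nhx5-2/nhx6-2 for AT4G02620. For VHA-A3 and all 3 peripheral subunit genes, nhx5-1/nhx6-1 had the lowest mean.

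**Figure D4:**
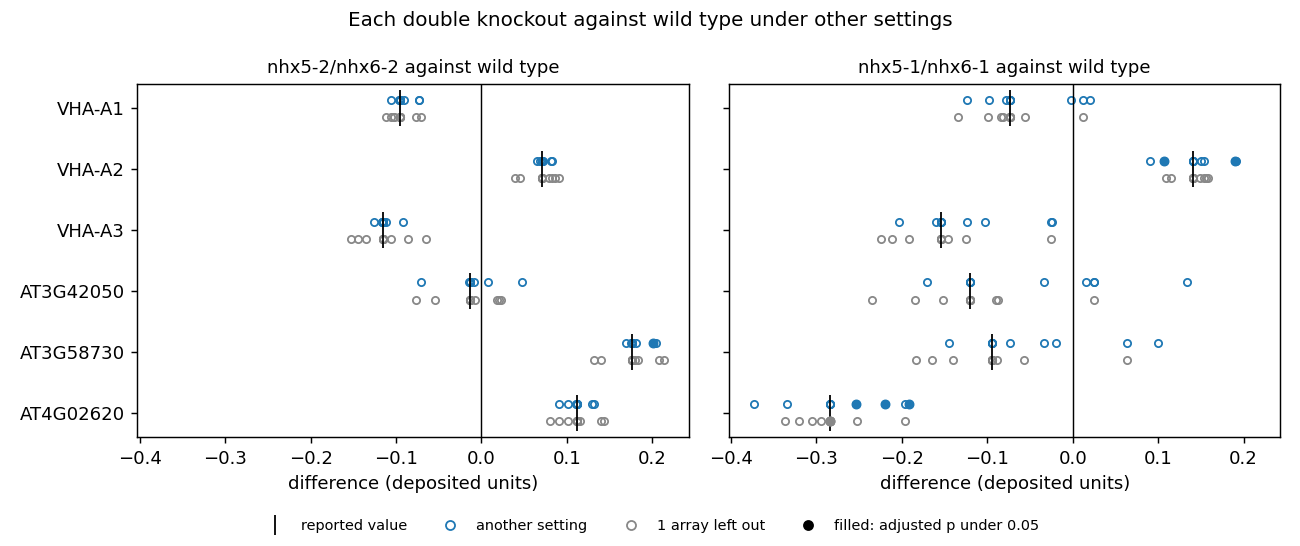
Difference of each double knockout from wild type under 25 alternative settings, in deposited units on the horizontal axis. The black bar is the reported value, blue circles are other settings, grey circles leave out 1 array, and filled circles passed at an adjusted p under 0.05. In nhx5-1/nhx6-1 AT4G02620 stays between -0.37 and -0.19 and VHA-A2 between 0.09 and 0.19, whereas AT3G42050 and AT3G58730 fall on both sides of 0.

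The plot of alternative settings shows how far each difference moved. In nhx5-1/nhx6-1 AT4G02620 remained negative in all 25 alternatives and passed in 5, and VHA-A2 remained positive in all 25 and passed in 2. VHA-A1, AT3G42050 and AT3G58730 changed sign in 3, 5 and 3 of them. In nhx5-2/nhx6-2, 5 of the 6 genes kept their sign in all 25, AT3G42050 being the exception, and AT3G58730 passed in 1, with array weights (0.20 units, adjusted p = 0.00890).

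Of 22 other V-ATPase subunit loci listed from general knowledge, 3 had a probe set with 1 gene: AT4G26710, AT4G32530 and AT5G55290, none of which the tables used here annotate further. In the mean of both double knockouts 1 of the 3 fell and none rose, beside 7.49% of all probe sets that fell and 5.81% that rose, and 3 genes are too few to set against those shares. AT4G26710 read 2.54, 2.68 and 2.63 in wild type, 2.34, 2.53 and 2.50 in nhx5-2, 2.42, 2.49 and 2.63 in nhx6-2, 2.42, 2.38 and 2.66 in nhx5-2/nhx6-2, and 2.26, 2.33 and 2.03 in nhx5-1/nhx6-1. As for AT4G02620, the 3 nhx5-1/nhx6-1 arrays lay below every wild type array, which held for 15.1% of all probe sets.

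AT4G26710 fell by 0.41 ± 0.09 units in nhx5-1/nhx6-1 against wild type (limma, adjusted p = 0.0108) and by 0.27 ± 0.08 in the mean of both double knockouts (adjusted p = 0.0386). In nhx5-2/nhx6-2 alone its difference was -0.13 ± 0.09 (adjusted p = 0.551). Without nhx5-1/nhx6-1 replicate 3 the first difference was -0.32 and passed (adjusted p = 0.0329). It did not pass once the model held the 3′ minus 5′ signal (difference -0.62, adjusted p = 0.210), a model that called 24 of all probe sets there, against 2736 without that signal. The fall in the mean of both was lost without any 1 of the 3 wild type arrays (adjusted p 0.0686 to 0.142) and without nhx5-2/nhx6-2 replicate 1 (0.0845) or 2 (0.0833). AT4G32530 read 1.05 to 1.21 in wild type and 0.76 to 1.16 in nhx5-1/nhx6-1, and AT5G55290 read 1.00 to 1.24 and 0.99 to 1.26. Neither passed in any comparison.

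For each gene, the transcript with the most similar profile over the 15 arrays was taken from 13507 other probe sets with 1 gene, as a description with no test. The likeness was highest for AT4G02620, with AT3G07480 (Pearson r = 0.977, Spearman rho = 0.975), and lowest for VHA-A3, with AT3G61360 (r = 0.899, rho = 0.807). VHA-A1 was most like AT1G29220 (r = 0.928, rho = 0.925), VHA-A2 most like AT1G55590 (r = 0.912, rho = 0.914), AT3G42050 most like AT3G52960 (r = 0.938, rho = 0.864) and AT3G58730 most like AQI (r = 0.928, rho = 0.811). After each genotype's mean was removed, a different transcript came first for every gene: AT4G16830 for VHA-A1 (r = 0.975), ICDH for VHA-A2 (0.939), AT1G56310 for VHA-A3 (0.960), AT2G27680 for AT3G42050 (0.949), Y14 for AT3G58730 (0.963) and AT2G47380 for AT4G02620 (0.955). All points of such a correlation share the array, its scaling and its quality.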

How the data were processed

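Total RNA of rosette leaves was labelled with biotin from 6 µg and hybridized to Affymetrix arrays (labels' protocols). The deposited values are a score for each of 22810 probe sets on 15 arrays, made by the authors. This score is log-like. Its background correction, summarization, normalization and log base, and the genome build, were not given in sources used here. It was used as deposited, where the plan had assumed intensities or log2 values.

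Tests excluded the 64 controls. Probe sets were named from the platform annotation given with the files (13513 with 1 gene, 503 with several, 8730 not listed), and 13436 of the 13513 matched the RefSeq gene table of TAIR10.1, which served for names only. NHX5, NHX6 and the listed pyrophosphatases, plasma membrane H+-ATPases, exchangers, chloride transporters, aquaporins and SNAREs had no such probe set and are not analysed here. No sequences were used.

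Each probe set received a genotype mean per group in limma 3.58.1 under R 4.3.3 (lmFit and eBayes, default settings, one spread shared by all 5 genotypes). P-values were adjusted by Benjamini-Hochberg over 22746 probe sets, with a threshold of 0.05, and "rose", "fell" and "called" refer to it. The script was tested on simulated data. With 3 arrays a genotype, the number of arrays limits the precision, and p-values measure the spread between the arrays of a genotype.

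The spike-in conversion regressed the score of 9 control probe sets on the log2 of nominal concentrations, which were assumed from the array maker's scheme. The slope was 0.681 units per doubling (SD 0.0281 over 15 arrays).

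The alternatives were other array scalings, a filter on dim probe sets, the 3′ minus 5′ covariate, a replicate block, a mean-spread trend, array weights, fits of only the compared genotypes, and leaving out arrays. Scaling to 1 mean and SD, and the comparisons of nhx5-1/nhx6-1 with each single knockout, were added after the values were seen. The 6 genes are named in every comparison of 1 knockout genotype with wild type, and elsewhere where the unadjusted p was under 0.05. Other listed V-ATPase genes are named with values where they passed in a knockout, and the most alike transcript is the one with the highest Pearson r. The 6 genes and the lists were chosen with earlier results of these data known.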

Additional observations from a re-analysis of the deposited data

Results flagged for a closer look

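AT4G02620 differed between the double knockouts by -0.40 ± 0.10 units (nhx5-1/nhx6-1 minus nhx5-2/nhx6-2, n = 3 arrays each). It is listed because every nhx5-2/nhx6-2 array read above the wild type mean and every nhx5-1/nhx6-1 array below it. The difference itself was tested and did not pass (limma, adjusted p = 0.0942), and the adjusted p ranged from 0.0034 to 0.553 over 25 alternatives, 4 of which passed. The double knockouts carry different alleles and also differed in their 3′ minus 5′ signal (2.27 to 2.40 against 1.75 to 2.14). With that signal as a covariate the difference was -0.46 units (adjusted p = 0.553), in a fit that called 4 of all probe sets in this comparison, against 86 without it. Groups of 3 arrays were not searched for outlying samples.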

How the results depend on the processing

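The 39 reported differences of the 6 genes were recomputed under 25 alternatives each. Direction changed only for differences that passed neither before nor after. Against wild type, nhx5-2 then gave AT3G42050 -0.0196 units after a shift to 1 median and -0.179 with the 3′ minus 5′ covariate. AT4G02620 in nhx5-2 became 0.0421 after quantile normalization, 0.0981 without both arrays of low SD, 0.0623 with the covariate, 0.0878 with array weights and 0.0469 with 1 mean and SD. VHA-A2 in nhx6-2 became -0.0198 with the covariate, and AT3G42050 in nhx5-2/nhx6-2 became 0.00805 after quantile normalization and 0.0472 with the covariate. In nhx5-1/nhx6-1 VHA-A1 became 0.0117 without both arrays of low SD and 0.0203 with the covariate. There AT3G42050 became 0.0250 after quantile normalization, 0.0247 without both arrays of low SD, 0.134 with the covariate and 0.0159 with array weights, and AT3G58730 became 0.0636 without both arrays and 0.0995 with array weights. AT3G42050 in nhx5-1/nhx6-1 against nhx6-2 became 0.0919 with the covariate. With single arrays left out, differences from wild type ranged over 0 for AT3G42050 (-0.0546 to 0.0840 in nhx5-2, -0.0763 to 0.0235 in nhx5-2/nhx6-2, -0.235 to 0.0247 in nhx5-1/nhx6-1), AT3G58730 (-0.183 to 0.0636 in nhx5-1/nhx6-1), AT4G02620 (-0.0972 to 0.0981 in nhx5-2), VHA-A1 (-0.134 to 0.0117 in nhx5-1/nhx6-1) and VHA-A2 (-0.0238 to 0.0535 in nhx6-2). The cause was not tested.

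Counts of the 6 genes called moved as follows. Quantile normalization gave 1 in nhx5-1/nhx6-1 against wild type, 1 in nhx5-2/nhx6-2 against nhx5-2, 1 between the double knockouts, 2 in nhx5-1/nhx6-1 against nhx5-2 and 2 in the F test. Array weights gave 1 in nhx5-2/nhx6-2 and 2 in nhx5-1/nhx6-1 against wild type, 2 in the mean of both, 1 in nhx5-2/nhx6-2 against nhx5-2, 2 against nhx6-2, 1 between the double knockouts, 2 in nhx5-1/nhx6-1 against nhx5-2 and 3 in the F test. The weights were estimated gene by gene. One mean and SD per array gave 2 in nhx5-1/nhx6-1 against wild type, 1 between the double knockouts, 2 in nhx5-1/nhx6-1 against nhx5-2 and 2 in the F test. Without both arrays of low SD 1 was called in nhx5-2/nhx6-2 against nhx6-2, 2 in nhx5-1/nhx6-1 against nhx5-2 and 1 in the F test. The covariate and the fits of only the compared genotypes each gave 0 in place of 1 in nhx5-1/nhx6-1 against nhx5-2 and against nhx6-2. Over all probe sets, calls in these 2 comparisons numbered 1 and 0 with the covariate and 219 and 30 in the fits of only the compared genotypes. Leaving out single arrays gave 0 to 1 in nhx5-1/nhx6-1 against wild type (1 without nhx5-2 replicate 1 or 3), 0 to 1 between the double knockouts (1 without nhx5-2 replicate 1), 1 to 2 against nhx5-2 (2 without nhx5-2 replicate 1), 0 to 2 against nhx6-2 (2 without nhx5-1/nhx6-1 replicate 1) and 0 to 1 in the F test (1 without nhx5-2 replicate 1, nhx5-2 replicate 3 or nhx6-2 replicate 3). Other V-ATPase genes called in the mean of both numbered 1, with 0 after a shift to 1 median, with the covariate, with a mean-spread trend and in the fit of only the compared genotypes, 2 with array weights, and 0 to 1 with single arrays left out.

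Same-numbered arrays did not deviate together: correlations of deviations over the 30 such pairs ran from -0.36 to 0.35 (median -0.05), and 3 of 15 arrays matched best with an array of their own number. The replicate block left all counts of called genes as reported, 0 of 6 in nhx5-1/nhx6-1 against wild type, where AT4G02620 had an adjusted p of 0.0938.

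Calls over all probe sets, the background of these counts, ranged from 1165 to 7169 in nhx5-2/nhx6-2 (2232 as reported) and from 24 with the covariate to 6955 with array weights in nhx5-1/nhx6-1 (2736 as reported). In the latter 1166 were higher and 1570 lower, against 629 and 1994 after a shift to 1 median. Higher calls were the more numerous with array weights (3684 and 3271), without nhx5-1/nhx6-1 replicate 3 (1662 and 1210) and with both arrays of low SD removed (2190 and 1653). The planned count over transport genes gave no value, since no listed gene had a probe set with 1 gene. With 3 arrays per genotype, differences of the 6 genes from wild type below 0.18 to 0.36 units could not pass in either double knockout.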

Other observations

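Within an array, the difference between the tonoplast subunit genes VHA-A2 and VHA-A3 was on average 0.33 units higher on the 6 double knockout arrays than on the 9 others, and 0.24 units higher than on the 3 wild type arrays. Both the measure, 1 of 15 pairs among the 6 genes, and the split of the arrays were chosen after the values were seen, so no test is given. The 6 and the 9 arrays also did not overlap after quantile normalization (0.32 units) or with 1 mean and SD per array (0.38 units). Nor did the 5 and 8 arrays left without both arrays of low SD (0.24 units). The nearest values of the groups were -0.684 and -0.705, -0.795 and -0.808, and -0.703 and -0.714, respectively. These settings reuse the same arrays and are no independent support. How often pairs of other probe sets separate in this way was not computed. The 3′ minus 5′ signal was 1.75 to 2.40 on the double knockout arrays and 1.45 to 1.97 on the others, and its part in this difference was not tested.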
